A study of Mus musculus with 12 samples.

Results

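Hippocampal transcript levels were compared between mice with low and mice with high fear extinction, and the difference was averaged over males and females. All 12 libraries of the series entered the comparison, 6 of mice with low and 6 of mice with high extinction. Each sex gave 3 libraries of either extinction level, which makes 4 groups of 3. Every mouse was a wild-type C57BL6/J animal aged 18 weeks, and its hippocampus gave 1 library, so replicate error here is that between animals. No mouse carried an allele or received an agent that the labels name, and the sources used here do not say how a mouse was placed at low or high extinction. Males and females were deposited in separate tables, so the difference of low minus high extinction was taken within each sex and then averaged with equal weight. Sex and table cannot be told apart.

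Fear extinction is the fading of learned fear once its cue or place is met again and again without harm. It is itself a form of learning, and the hippocampus supplies its context. Neurons that fire strongly switch on immediate early genes within minutes, first transcription factors such as Fos, Junb and Egr2 and then effectors that act at the synapse or damp the signalling. Other RNAs stay in the nucleus, among them long noncoding RNAs, and the RNA-binding proteins Tia1 and Tial1 act there on splicing and in the cytoplasm in stress granules, where mRNAs are held untranslated. The labels do not give the time between the last behavioural session and dissection.

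Depth is unknown for every library, because TPM (a transcript's level corrected for its length and scaled to a fixed total per library) keeps no depth. Each library had 18170 to 19062 genes at 1 TPM or more, and pairs of libraries correlated at 0.973 to 0.983 on log2(TPM + 1). Genes derived from ribosomal RNA took from 7.26% to 24.1% of all TPM, and this share lowers every other gene of a library. It lay at 24.1%, 13.6% and 11.1% in high-extinction males, 17.2%, 15.8% and 14.4% in low-extinction males, 11.2%, 14.2% and 14% in high-extinction females and 12.4%, 11.2% and 7.26% in low-extinction females. The X-inactivation transcript Xist stood at 180 TPM or more in all 6 female libraries and at 0.822 TPM or less in all 6 male libraries, as labelled. Prox1, a transcription factor of dentate gyrus granule cells, lay between 39 and 50.6 TPM in all 12 libraries.

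The activity-induced transcription factors Junb, Egr2 and Egr4, the heat shock genes Dnajb1 and Hspa1a and the clock repressors Nr1d1 and Nfil3 were higher at high extinction in both sexes. The nuclear RNAs Meg3 and Miat, transcripts across from Ube3a, the zinc finger gene Zkscan2 and the RNA-binding protein genes Tia1, Tial1 and Srsf11 were higher at low extinction in both sexes. The changes were small: 144 of the 153 genes called differed by less than 1.5-fold. These calls rest on the combined change, the mean of the male and female log2 fold changes in the authors' deposited tables, which came from read counts. At an adjusted p under 0.05 (two-sided normal test of the combined change, Benjamini-Hochberg over 18043 genes), 82 genes (0.454% of those tested) were higher at low extinction and 71 (0.394%) were higher at high extinction. Centred over GC content and transcript length, 88 and 38 were called. Of these 153 genes, 151 changed in the same direction in both sexes, and 73 were called in neither of the authors' deposited tables alone. A call on the mean of both changes favours genes with the same sign, so the 151 are no separate evidence of agreement between the sexes. Those called with opposite signs were Prkcd and Foxj1. Over all tested genes, 54.4% had the same sign in both sexes, and the correlation of the male with the female change across the 18043 genes was -0.008.

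On the TPM values, limma called 0 of 18499 genes for the same contrast (smallest adjusted p = 0.14). An unadjusted p under 0.05 was reached by 1424 genes, 1070 of them higher at low and 354 higher at high extinction. Leaving out single libraries gave 0 to 3 genes. Of the 153 genes called on the combined change, 151 had the same sign on the TPM change averaged over the sexes. That sign held on TPM in each sex in 139, and 132 had a limma unadjusted p under 0.05 on TPM. Both measures came from the same 12 libraries, and the deposited direction was itself set from TPM, so these counts are no independent support. The exceptions in sign on the averaged TPM change were Srsf5 and Mirt1, which were singled out after their values were seen.

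A view that needs no distribution counts genes whose 3 low-extinction libraries all lay above, or all below, the 3 high-extinction libraries in both sexes. At low extinction 158 genes (0.854% of 18499) lay above and 35 (0.189%) lay below. This split depended on the scale of TPM: with genes derived from ribosomal RNA left out and the rest rescaled, 117 lay above and 105 below, and with libraries scaled to the same median, 168 and 73. Of the called genes, 30 of the 82 higher at low and 10 of the 71 higher at high extinction had no overlap between the groups in either sex.

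**Figure D1:**
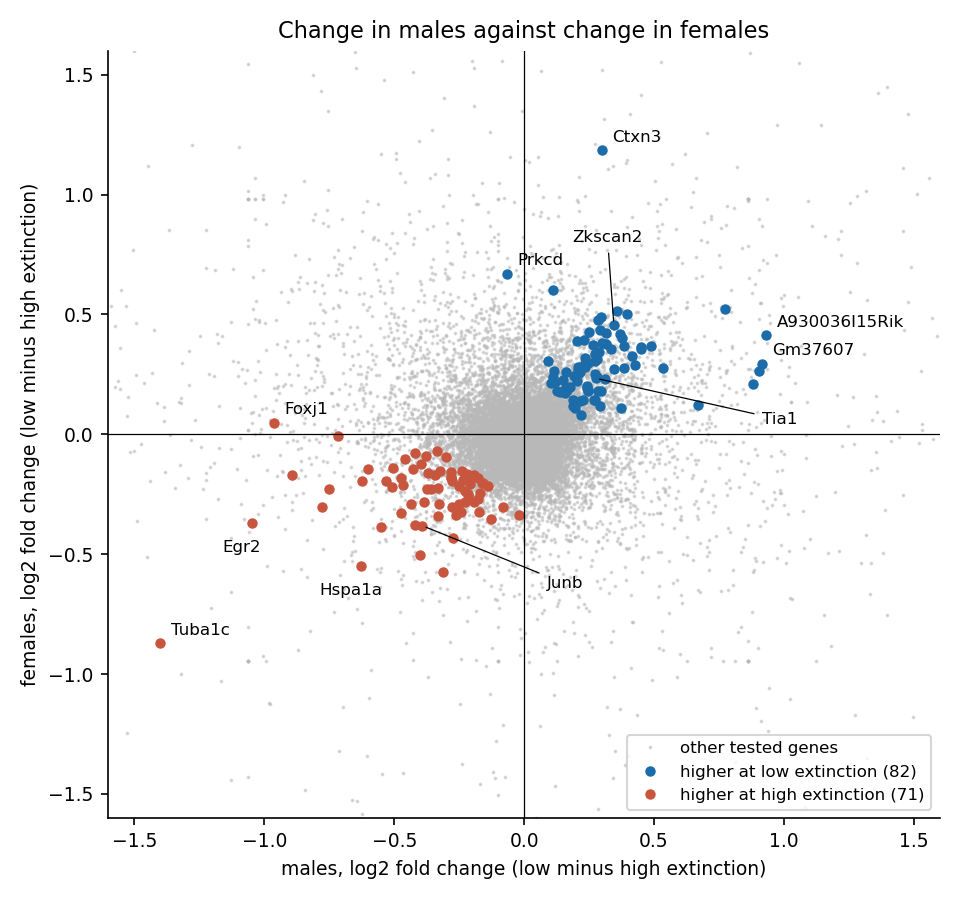
Log2 fold change of low minus high extinction in males (x axis) against females (y axis), from the authors' deposited tables, with the 82 genes called higher at low extinction in blue and the 71 called higher at high extinction in red. Of the 153 called genes, 151 lie where both changes have the same sign, which a call on their mean favours. Grey points spread over both same and opposite signs. Beyond the axes at 1.6 lie 302 tested genes, 1 of them called.

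Genes called in 1 sex were looked up in the other sex, whose mice played no part in that call. Of the 23 genes called higher at low extinction in males in the authors' deposited table, 22 (95.7%) had the same sign in females, against 45.9% of all tested genes, and 8 (34.8%) had that sign at an unadjusted p under 0.05, against a background of 3.6%. The 69 genes called higher at high extinction in males had the same sign in 33 cases (47.8%, against 54.1% of all genes), yet 14 (20.3%) reached an unadjusted p under 0.05 with that sign, against 5.1%. Of the 85 genes called higher at low extinction in females, 38 (44.7%) had the same sign in males, against 47.9% of all genes, and 21 (24.7%) did so at an unadjusted p under 0.05, against 2.67%. Of the 45 genes called higher at high extinction in females, 31 (68.9%) had the same sign in males, against 52.1%, and 10 (22.2%) passed there, against 4.92%. Genes called in both of the authors' deposited tables with 1 direction numbered 9. Zkscan2, 9330162G02Rik, Snhg11, Meg3, A230103L15Rik, Gm21781 and Tia1 were higher at low, and Junb and Dnajb1 were higher at high extinction.

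Immediate early transcription factors pointed to high extinction in most cases. Calls fell on 8 of 26 tested members, all 8 higher at high extinction, where 0.394% and 0.454% of all tested genes were called. In 22 of the 26 both sexes pointed to high extinction, 1 pointed to low extinction and 3 were split. Over all tested genes, 30.3% and 24% pointed to high and low extinction in both sexes. The median combined change was -0.25, against -0.01 over all tested genes. Egr2, a zinc finger factor of the Egr family, had the largest change among the called factors. It is therefore shown with the sequence upstream of 1 of its RefSeq starts. The window comes from the RefSeq promoter table on build GRCm38.p6 (chr10:67537464-67537533, plus strand), and the capitals mark a serum response element, the site through which serum response factor switches on immediate early genes.

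Egr2: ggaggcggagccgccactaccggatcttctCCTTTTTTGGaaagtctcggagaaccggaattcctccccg

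GENCODE places the start of the Egr2 gene further upstream, at position 67535475. The element starts 72 bases before 1 of several RefSeq starts and stood in 4 windows of this gene. It was found in 1.63% of the 32851 mouse promoter windows of 250 bases before to 50 bases after a start, searched on both strands. Of the 12 called immediate early genes, 10 were in the table, and Egr2 was the only one of them with this element in the window. The cyclic AMP response element TGACGTCA, which reads the same on both strands and stood in 1.79% of windows, was in none of the 15 windows of these 10 genes. A missing match says only that these letters are not in this window.

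Egr2 lay at 3.23, 4.72 and 4.08 TPM in high-extinction males and at 1.69, 1.43 and 2.17 TPM in low-extinction males. In females it lay at 8.71, 8.83 and 6.92 TPM at high and at 5.94, 7.12 and 6.98 TPM at low extinction. The male groups did not overlap, while in females replicate 3 of high extinction fell among the low-extinction mice. Its combined change of -0.71 (SE 0.128) is a 1.63-fold difference (adjusted p = 3.25e-05), and the authors' deposited tables gave -1.05 in males and -0.37 in females.

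Junb, a member of the AP-1 family that pairs with Fos proteins, lay at 57.7, 77.3 and 59.1 TPM in high-extinction and 50.4, 45.6 and 49.6 TPM in low-extinction males. In females Junb lay at 103, 100 and 86.9 TPM at high and 81.1, 66.9 and 88.8 TPM at low extinction. Every low-extinction library was below the median of the high-extinction libraries of its sex, and only replicate 3 of low extinction overlapped in females. The combined change was -0.39 (SE 0.066, adjusted p = 1.1e-05), and the authors' deposited tables gave nearly equal values, -0.39 in males and -0.38 in females. Egr4, another zinc finger factor of the Egr family, lay at 20.5, 32.3 and 28 TPM in high-extinction and 18.9, 19.1 and 25.8 TPM in low-extinction males. In females Egr4 lay at 42.3, 38.5 and 37.3 TPM at high and 29.4, 22.8 and 32.2 TPM at low extinction, without overlap, and its combined change was -0.44 (SE 0.085, adjusted p = 0.000131).

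Fosl2, an AP-1 partner that appears later than Fos, had a combined change of -0.34 (SE 0.06, adjusted p = 3.25e-05). It lay at 23.5, 22.1 and 26.2 against 20.9, 18.4 and 16.6 TPM in males and at 32.8, 32.1 and 27.4 against 24.1, 26.9 and 28 TPM in females, high before low extinction. Nr4a3, an orphan nuclear receptor, changed by -0.31 (SE 0.058, adjusted p = 8.77e-05). The other called members, named after their values were seen, were Klf10 (combined change -0.36, adjusted p = 0.000651), Fosb (-0.35, adjusted p = 0.0114) and Jun (-0.19, adjusted p = 0.0353). Nab2, which binds Egr proteins and holds back their activity, is not on that list and was also called, at -0.27 (adjusted p = 0.00483).

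Several classic members did not pass, and they were named for their role after their values were seen. Egr1 had a combined change of -0.38 (SE 0.112, adjusted p = 0.0775) and lay at 66.5, 106 and 68.7 against 58.3, 57.2 and 62.4 TPM in males. In females Egr1 lay at 128, 119 and 99.8 TPM at high and 94.4, 95.6 and 101 TPM at low extinction. Fos had a combined change of -0.56 with a wide error (SE 0.232, adjusted p = 0.38), and in males it stood at 11.6, 24.8 and 11.8 TPM at high against 13.5, 7.98 and 9.18 TPM at low extinction. Replicate 2 of the high-extinction males was highest for both genes in males. Npas4, the activity factor most specific to neurons, had a combined change of 0.02 (SE 0.311, adjusted p = 0.997), and Nr4a1 had -0.20 (SE 0.136, adjusted p = 0.731).

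The mean log2(TPM + 1) of the 26 transcription factors, set against its mean over all libraries, was -0.24, 0.08 and -0.16 in high-extinction and -0.34, -0.41 and -0.32 in low-extinction males. In females it was 0.41, 0.32 and 0.20 at high and 0.11, 0.08 and 0.27 at low extinction. The male groups did not overlap, and in females replicate 3 of low extinction lay above replicate 3 of high extinction. With fold changes centred over GC content and transcript length, 6 of the 26 were called higher at high extinction in place of 8.

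**Figure D2:**
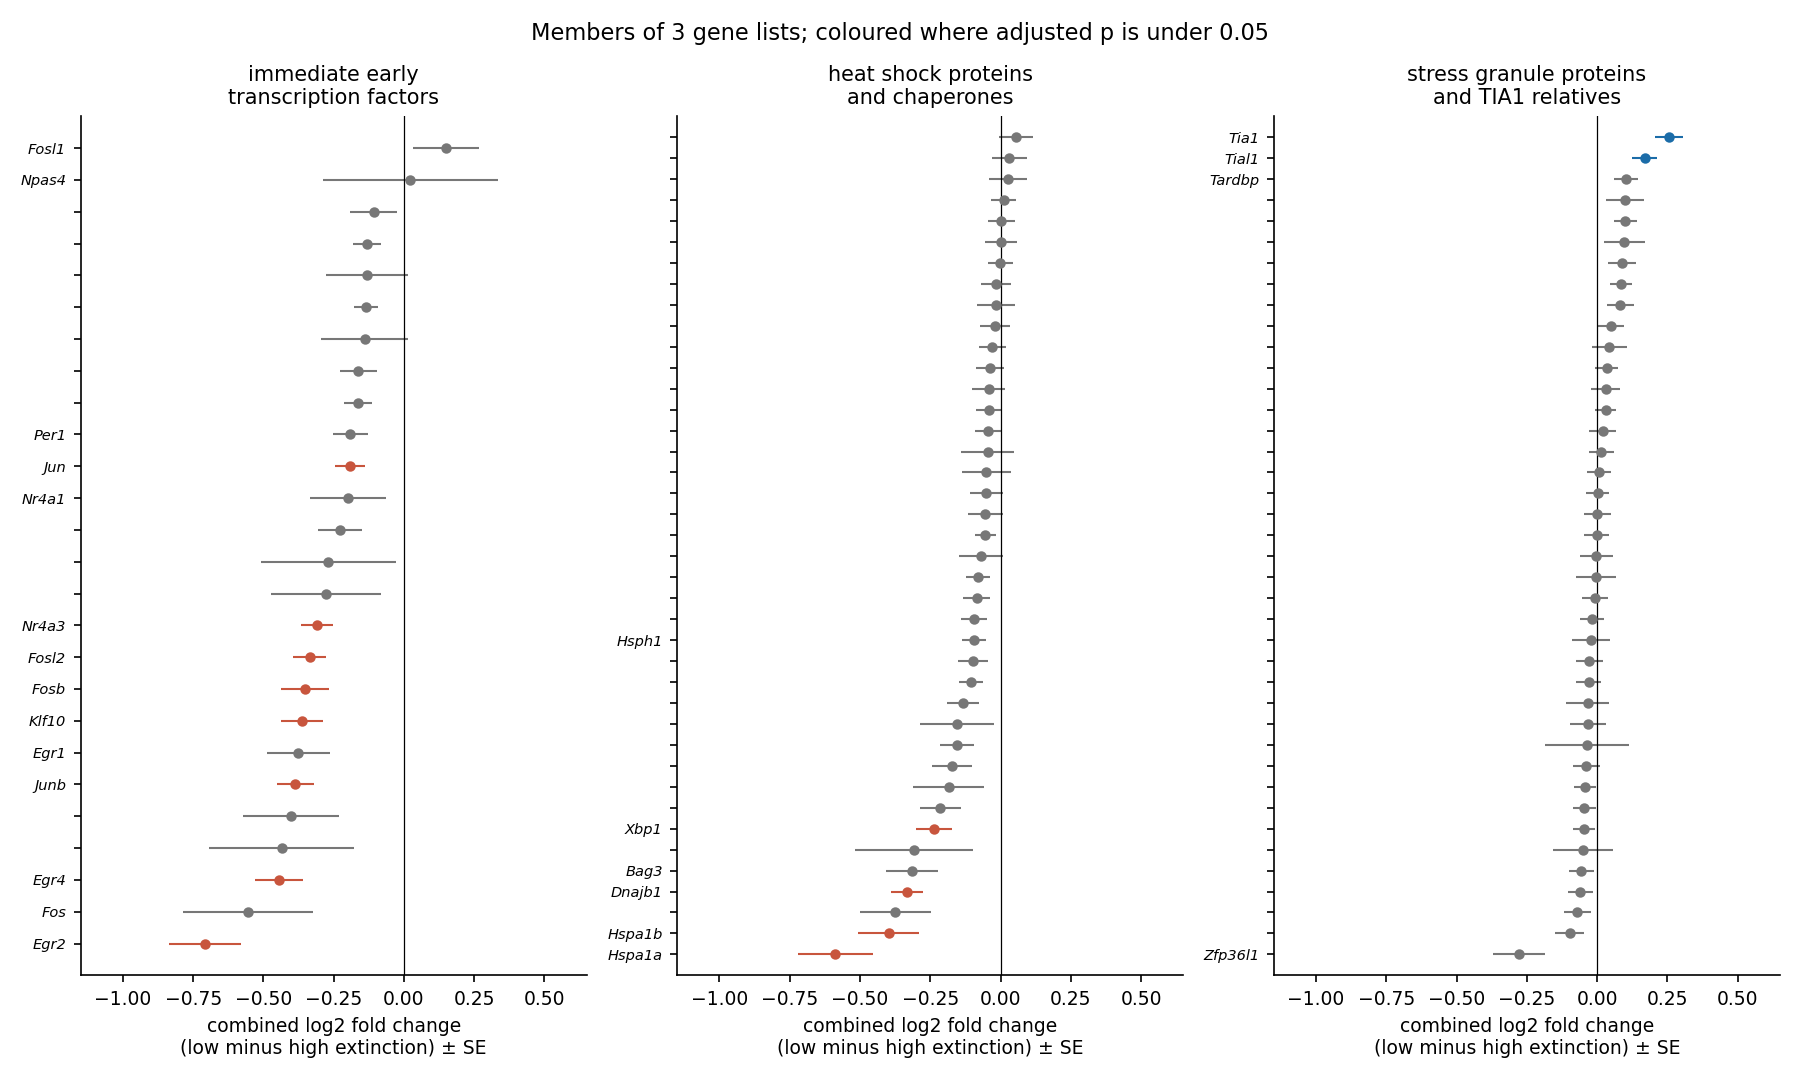
Combined log2 fold change with its standard error for each tested member of 3 gene lists, coloured where the adjusted p is under 0.05 and named where it is described in the text. Immediate early transcription factors lie left of 0 except Npas4 and Fosl1, heat shock genes lean left with 4 called, and of 40 stress granule and TIA1-related genes only Tia1 and Tial1 are called.

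Immediate early effectors gave 4 calls among 30 tested members, all higher at high extinction, where 0.394% of all tested genes were called. Both sexes pointed to high extinction in 16 of the 30, to low extinction in 1, and 13 were split, with a median of -0.11. Over all tested genes, 30.3% pointed to high and 24% to low extinction in both sexes. Dusp6, a phosphatase that shuts off ERK signalling, had a combined change of -0.26 (SE 0.056, adjusted p = 0.00239) and lay at 32.5, 41.3 and 37.7 against 29.7, 34.5 and 30.9 TPM in males. In females Dusp6 lay at 52.6, 50.8 and 43.1 TPM at high and 41.2, 42.4 and 45 TPM at low extinction. Gadd45b, a stress-induced protein tied to DNA demethylation in neurons, changed by -0.40 (SE 0.104, adjusted p = 0.0232), and its groups did not overlap in males, at 15.5, 16.8 and 14.7 against 12.5, 8.18 and 11.9 TPM. Sik1, a kinase that restrains CREB coactivators, changed by -0.34 (SE 0.093, adjusted p = 0.0383), and Midn, a nuclear protein that brings early gene products to the proteasome, by -0.23 (SE 0.064, adjusted p = 0.0353). Midn and Gadd45b lie with Klf16, also called higher at high extinction, between positions 80148272 and 80932204 of chromosome 10, where 45 genes were tested.

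Arc, which trims AMPA receptors from synapses, did not pass: its combined change was -0.53 (SE 0.22, adjusted p = 0.381). It stood at 83.8, 158 and 57 TPM in high-extinction and 66, 56.1 and 59.7 TPM in low-extinction males, where 1 of the high-extinction mice was at the level of the low-extinction mice and another far above. Females lay at 201, 178 and 155 TPM at high and 155, 131 and 158 TPM at low extinction. Homer1, a postsynaptic scaffold, came closer (-0.20, SE 0.059, adjusted p = 0.0815), as did Dusp5, another ERK phosphatase (-0.23, SE 0.066, adjusted p = 0.0575). The neurotrophin Bdnf had a combined change of 0.01 (SE 0.056, adjusted p = 0.997) and was within 22.6 to 30 TPM in all 12 libraries. Centred over GC content and length, Sik1 (adjusted p = 0.12) and Midn (adjusted p = 0.22) lost their calls.

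Heat shock and chaperone genes pointed the same way with a smaller median. Of 40 tested members, 4 were called, all higher at high extinction, where 0.394% of all tested genes were called. In 25 both sexes pointed to high extinction, in 1 to low extinction, and the median was -0.06. Over all tested genes, 30.3% pointed to high and 24% to low extinction in both sexes. Dnajb1, the HSP40 cochaperone that loads clients onto HSP70, had no overlap between the groups in either sex. It lay at 31.6, 40.9 and 34.1 TPM in high-extinction and 27.9, 26 and 26.4 TPM in low-extinction males, and at 39, 38.4 and 35.5 against 33.9, 31 and 33.8 TPM in females. Its combined change was -0.33 (SE 0.057, adjusted p = 1.16e-05), and leaving out any single library kept its TPM change between -0.33 and -0.24. Hspa1a, the inducible HSP70, also had no overlap in either sex, at 14.2, 24.2 and 15.6 against 11.7, 12.2 and 11.4 TPM in males and 18.5, 16.3 and 17.4 against 16.2, 10.5 and 12.7 TPM in females. Its combined change was -0.59 (SE 0.134), a 1.5-fold difference (adjusted p = 0.004).

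Hspa1b, the near-identical copy of Hspa1a, was called at -0.40 (SE 0.109, adjusted p = 0.0381), and reads of these copies can be split between them by the counting, so the share of each is uncertain. Xbp1, the transcription factor of the unfolded protein response, was called at -0.24 (SE 0.064, adjusted p = 0.0329). Bag3, an HSP70 cochaperone of selective autophagy, did not pass, with -0.31 (SE 0.092, adjusted p = 0.0651), and the abundant Hsph1 had -0.09 (SE 0.044, adjusted p = 0.485). Centred over GC content and length, Hspa1b and Xbp1 each lost the call (adjusted p = 0.13). The heat shock element, in its gapped form of 3 alternating units on either strand, stood in 0.603% of the promoter windows and in none of the 5 windows of these 4 genes.

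Clock genes gave calls in both directions. Of 22 tested, Nr1d1 and Nfil3 were called higher at high extinction, and Per3 was called higher at low extinction. Over all tested genes, 0.394% and 0.454% were called in these directions. Nr1d1 encodes REV-ERBα, the receptor that represses Bmal1, and lay at 72.9, 83.9 and 75.5 TPM in high-extinction and 61.6, 60.1 and 60.4 TPM in low-extinction males. In females it lay at 76, 77.9 and 56.4 against 59.4, 61.1 and 70.5 TPM, where the groups overlapped, and its combined change was -0.28 (SE 0.059, adjusted p = 0.0014). Nfil3, a repressor at D-box sites, lay at 8.59, 9.7 and 11.1 against 6.71, 6.6 and 6.23 TPM in males and 11.2, 9.98 and 8.35 against 9.26, 7.41 and 7.33 TPM in females. The male groups were apart and the female groups overlapped in 1 library each, with a combined change of -0.47 (SE 0.103, adjusted p = 0.00215).

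All 3 called clock genes were in the promoter table. Of these, only Per3, a period protein, held the D-box letters TTATGTAA or TTACATAA in its window. The D-box is the site that Nfil3 and its activating rivals share, and other spellings of it were not searched. Binding of Nfil3 at Per3 was not tested. The window is from the RefSeq table on GRCm38.p6 (chr4:151044833-151044900, minus strand), with the D-box in capitals, 205 bases before the start.

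Per3: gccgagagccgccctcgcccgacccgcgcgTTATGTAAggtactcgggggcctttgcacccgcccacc

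The letters TTATGTAA or TTACATAA stood in 0.938% of all windows. Per3 lay at 20.1, 23.9 and 22 TPM in high-extinction and 25.8, 26.4 and 25.3 TPM in low-extinction males, and at 26, 25.2 and 27.8 against 30.6, 26.8 and 33.2 TPM in females. The male groups were apart and the female groups overlapped, and its combined change was 0.21 (SE 0.053, adjusted p = 0.0215). The other period genes did not pass: Per1 had -0.19 (SE 0.063, adjusted p = 0.148), Per2 had -0.09 (SE 0.052, adjusted p = 0.662), and the D-box activator Dbp had -0.06 (SE 0.066, adjusted p = 0.898). The hour of dissection was not among the labels.

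Further genes higher at high extinction had roles in transcription, growth signalling, transport and membrane excitability. Fam46a, a poly(A) polymerase-like enzyme gene, had no overlap in either sex, at 4.66, 5.8 and 4.34 against 2.57, 2.48 and 3.22 TPM in males and 5.52, 5.93 and 4.88 against 4.8, 4.62 and 4.48 TPM in females (combined change -0.54, SE 0.092, adjusted p = 1.1e-05). Neurl1b, a ubiquitin ligase that acts on Notch ligands, also had no overlap, at 23.9, 23.8 and 27.3 against 19.5, 20.4 and 21.7 TPM in males and 27.5, 24.4 and 23.6 against 22.4, 18.8 and 22.7 TPM in females (-0.29, SE 0.054, adjusted p = 0.000131). Foxo6, a forkhead factor of the hippocampus, was called at -0.45 (SE 0.087, adjusted p = 0.000149). Slc5a3, the myo-inositol transporter, was called at -0.37 (SE 0.073, adjusted p = 0.000232). Slc5a3 overlaps Mrps6 on the same strand. The cell cycle gene Ccnd2 (-0.27, adjusted p = 2e-05), Banp (-0.37, adjusted p = 2e-05), the lipid phosphatase gene Mtmr4 (-0.24, adjusted p = 0.000232) and the corepressor gene Cbfa2t3 (-0.30, adjusted p = 0.00028) were also among the 15 smallest p-values. On TPM, Mtmr4 was lower at low extinction in males only, with changes of -0.40 in males and 0.10 in females.

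Genes without overlap in either sex also included Irs2, an adaptor of the insulin receptor (-0.21, adjusted p = 0.0145) and Gnaz, an inhibitory G protein subunit (-0.18, adjusted p = 0.0171). 2410131K14Rik (-0.24, adjusted p = 0.00738) and Gfod1 (-0.18, adjusted p = 0.0155) showed the same separation. Of 73 potassium channel genes tested, Kcnf1 (-0.18, adjusted p = 0.0232) and Kcnh1 (-0.20, adjusted p = 0.0386) were called higher at high extinction, and the sodium-activated channel gene Kcnt1 (0.24, adjusted p = 0.0275) was higher at low extinction. Calls made 2.74% at high and 1.37% at low extinction, where 0.394% and 0.454% of all tested genes were called. Both sexes pointed to high extinction in 28 of the 73 (38.4%, against 30.3% of all tested genes). They pointed to low extinction in 9 (12.3%, against 24%). The muscarinic receptor gene Chrm4 (-0.33, adjusted p = 0.0337) and the histone methyltransferase gene Setd1b (-0.22, adjusted p = 0.0049) were the only calls on their lists of 30 and 58 tested genes. Irs2, Gnaz, Kcnf1, Gfod1, Kcnh1, Chrm4 and Setd1b lost their calls when fold changes were centred over GC content and length.

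The 2 genes with a combined change of 2-fold or more were named after their values were seen. Slc16a8, a lactate transporter of choroid plexus and retinal epithelium, was called at -1.32 (SE 0.341, adjusted p = 0.0225). It stood at 2.32, 3.87 and 0.408 TPM in high-extinction and 0.626, 0.35 and 0.207 TPM in low-extinction males, and at 0.423, 2.03 and 1.27 against 1.1, 1.22 and 0.395 TPM in females. Tuba1c, a tubulin gene with near-identical paralogs, was called at -1.14 (SE 0.294, adjusted p = 0.0231), yet its TPM was above 0 in replicate 2 of the high-extinction males and was listed at 0 in the other 11 libraries, so its TPM and its count-based change cannot be compared.

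Sst, the neuropeptide that marks a class of interneurons, was the only call among 24 interneuron identity genes, at -0.18 (SE 0.05, adjusted p = 0.0445). Calls in this direction made 0.394% of all tested genes. Sst carries the textbook cyclic AMP response element, and of the 49 genes called higher at high extinction that were in the promoter table it was the only one with this element in its window. The RefSeq window on GRCm38.p6 (chr16:23890855-23890922, minus strand) is shown with that element in capitals, 48 bases before the start.

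Sst: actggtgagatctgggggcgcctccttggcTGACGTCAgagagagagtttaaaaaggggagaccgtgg

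Sst lay at 323, 372 and 362 TPM in high-extinction and 333, 341 and 355 TPM in low-extinction males, which overlapped. In females Sst lay at 444, 375 and 415 TPM at high and 361, 312 and 366 TPM at low extinction, which did not. The authors' deposited tables gave -0.02 in males and -0.34 in females, and the call was lost when fold changes were centred over GC content and length (adjusted p = 0.28).

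Nuclear noncoding RNAs were among the genes higher at low extinction. Of 15 tested long noncoding RNAs that are retained in the nucleus, Meg3, Miat and Ftx were called, all higher at low extinction. That direction was called in 0.454% of all tested genes, and the median of the 15 was 0.10. Both sexes pointed to low extinction in 8 of the 15 and to high extinction in 2, against 24% and 30.3% of all tested genes. Meg3, the maternally expressed RNA of the imprinted Dlk1-Dio3 region, lay at 582, 677 and 729 TPM in high-extinction and 798, 750 and 764 TPM in low-extinction males. In females Meg3 lay at 860, 810 and 659 against 882, 815 and 1072 TPM, with overlap, and its combined change was 0.27 (SE 0.044, adjusted p = 2.9e-06). Meg3 was 1 of 3 called genes higher at low extinction with a cyclic AMP response element in the promoter window, the others being Gm3764 and Wsb1, so it is printed for comparison with Sst (RefSeq, GRCm38.p6, chr12:109540909-109540976, plus strand, the element 57 bases before the start).

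Meg3: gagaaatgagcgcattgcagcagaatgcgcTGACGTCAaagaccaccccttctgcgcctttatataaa

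Both genes thus hold the same 8 letters at a like distance from the start, and their combined changes had opposite signs. Of the 50 genes called higher at low extinction that were in the table, these 3 make 6%, and among the 49 called higher at high extinction Sst alone makes 2.04%, where 2.03% of all genes had the element in a window.

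Miat, a nuclear RNA of neurons, lay at 121, 121 and 126 TPM in high-extinction and 143, 152 and 154 TPM in low-extinction males without overlap, and at 140, 138 and 124 against 158, 145 and 135 TPM in females with overlap (combined change 0.24, SE 0.042, adjusted p = 1.76e-05). Ftx, an activator of Xist from the X-inactivation centre, was called at 0.22 (SE 0.058, adjusted p = 0.0231), as was Gm38020 (0.21), which overlaps it on the same strand. Rian, which lies beside Meg3 in the same imprinted region, had 0.14 (SE 0.04, adjusted p = 0.0515). Malat1, the most abundant member, had a combined change of 0.27 (SE 0.096, adjusted p = 0.2). It lay at 1378, 1298 and 1216 against 1501, 1616 and 1697 TPM in males and at 1132, 1433 and 1231 against 1486, 1842 and 1372 TPM in females, so that male groups were apart and 1 female library of each group overlapped. Neat1, the scaffold of paraspeckles, had -0.01 (SE 0.109, adjusted p = 0.997).

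Snhg11 was the only call among 18 host genes of small nucleolar RNAs, and its groups had no overlap in either sex. Over all tested genes, 0.454% were called higher at low extinction, and 0.854% lay above in both sexes without overlap. It lay at 431, 529 and 484 TPM in high-extinction and 588, 560 and 589 TPM in low-extinction males, and at 580, 584 and 496 against 710, 709 and 788 TPM in females. The combined change was 0.30 (SE 0.042, adjusted p = 8.26e-09), and the authors' deposited tables gave 0.28 in males and 0.31 in females. Both sexes pointed to low extinction in 8 of the 18 host genes and to high extinction in 3, against 24% and 30.3% of all tested genes. Mir124-2hg, a host gene of the neuronal microRNA miR-124 that is on neither list, was called at 0.26 (SE 0.069, adjusted p = 0.0253).

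Ube3a, the ubiquitin ligase gene of Angelman syndrome, is silenced on the paternal chromosome in neurons by a long antisense RNA that continues from Snhg14. The 6 genes called higher at low extinction between positions 59223847 and 59331189 of chromosome 7 set the ends of that span. Their number within it is therefore no evidence of clustering. All 8 tested genes of the span had a positive combined change. Over all tested genes, 0.454% were called in that direction. The 6 are TEC models, which GENCODE lists as awaiting experimental evidence, and 80% of 560 tested TEC models were positive. 9330162G02Rik, Gm44562, Gm44559 and Gm44560 lie across from Ube3a on the opposite strand, A230103L15Rik overlaps Snhg14 on its own strand and Gm44829 lies across from Snhg14. 9330162G02Rik lay at 9.87, 11.7 and 11.3 TPM in high-extinction and 13.6, 13.6 and 12.1 TPM in low-extinction males, and at 11.8, 12.1 and 11.5 against 15.2, 15.5 and 16.8 TPM in females. Its combined change was 0.32 (SE 0.044, adjusted p = 8.26e-09), and A230103L15Rik had 0.35 (SE 0.057, adjusted p = 3.83e-06). A230103L15Rik lay at 15.5, 19 and 17.5 against 21.7, 21.7 and 21.4 TPM in males and at 16.4, 17.6 and 15.9 against 20.3, 22.8 and 24.5 TPM in females.

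All 6 called genes of this region had no overlap between the groups in either sex. Over all 18499 tested genes, 0.854% lay above at low extinction in this way. The changes of Gm44559 (0.45), Gm44562 (0.38), Gm44560 (0.37) and Gm44829 (0.34) were alike. The 6 genes lie beside or across from one another, so they are not 6 separate observations. Snhg14 had no overlap either, at 116, 108 and 115 against 124, 134 and 125 TPM in males and 119, 145 and 120 against 154, 164 and 152 TPM in females, but its combined change of 0.15 (SE 0.053) did not pass (adjusted p = 0.2). Ube3a itself had 0.09 (SE 0.043, adjusted p = 0.497), and its groups overlapped in males, at 76.8, 44.8 and 83.3 against 87.1, 73.5 and 78.5 TPM. The sources used here do not say whether reads were counted by strand, and without it those of Ube3a and of its antisense partners cannot be told apart. Centred over GC content and length, Gm44562, Gm44560 and Gm44829 lost their calls, with adjusted p from 0.1 to 0.29.

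Genes of splicing factors pointed to low extinction in most cases. Of 64 tested, 2 were called, both higher at low extinction, where 0.454% of all tested genes were called. In 37 of the 64 (57.8%) both sexes pointed to low extinction, against 24% of all tested genes, and 7 pointed to high extinction, with a median of 0.04. On TPM only the female groups were apart. The mean log2(TPM + 1) of the list, set against its mean over all libraries, overlapped in males. It was -0.14, -0.08 and 0.03 at high against -0.05, -0.07 and -0.09 at low extinction there. In females it was 0.01, 0.03 and -0.08 against 0.10, 0.13 and 0.20. Srsf11, a serine/arginine-rich splicing factor, had no overlap in either sex, at 158, 177 and 171 against 206, 192 and 192 TPM in males and 203, 188 and 179 against 221, 231 and 220 TPM in females (combined change 0.19, SE 0.043, adjusted p = 0.00466). Srsf5 was called at 0.16 (SE 0.042, adjusted p = 0.0276), but its TPM change was -0.03 (limma unadjusted p = 0.829). Luc7l3, a U1 snRNP-associated factor, had 0.15 (adjusted p = 0.0575), Srsf6 0.15 (adjusted p = 0.0828) and Snrnp70, a U1 snRNP protein, 0.14 (adjusted p = 0.0841). Off the list, the splicing speckle gene Pnisr had no overlap in either sex, at 113, 110 and 121 against 131, 150 and 143 TPM in males and 127, 125 and 102 against 130, 136 and 159 TPM in females (0.22, SE 0.038, adjusted p = 1.71e-05). Arglu1 (0.19, adjusted p = 0.00193), Leng8 (0.18, adjusted p = 0.0153) and Srrt (0.15, adjusted p = 0.0463), which also act in RNA processing, were called too and were named after their values were seen.

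Tia1, which the title of the series names, and its paralog Tial1 were the only calls among 40 genes of stress granules and the TIA1 family. Both were higher at low extinction, where 0.454% of all tested genes were called. Tia1 (ENSMUSG00000071337.11) spans positions 86404219 to 86433405 of chromosome 6 on the plus strand of GRCm38. It lay at 51.8, 63.5 and 92.5 TPM in high-extinction and 69, 103 and 93.9 TPM in low-extinction males, and at 80.3, 76.8 and 73.8 against 78.8, 117 and 92.8 TPM in females. All 6 low-extinction libraries lay above the median of the high-extinction libraries of their sex, and the groups overlapped in both sexes. Its combined change was 0.26 (SE 0.049), a 1.19-fold difference (adjusted p = 0.000141). On TPM the change was 0.34, and an exact permutation test, two-sided, gave p = 0.065 over 400 assignments within sex, of which the smallest possible is 0.005. With 1 library left out, over 200 assignments, the exact p ran from 0.03 to 0.165 and was above 0.05 in 9 of 12 cases. It was 0.03 when replicate 3 of the high-extinction males was dropped, 0.045 when replicate 1 of the males at low extinction was dropped and 0.04 when replicate 1 of the females at low extinction was.

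Tial1, which was also named for its role, had a smaller change with less spread. It lay at 57.7, 60.2 and 58.7 TPM in high-extinction and 68.4, 64.9 and 62.1 TPM in low-extinction males, and at 64.2, 56.2 and 60 against 75.9, 82.2 and 73.2 TPM in females, without overlap in either sex. The combined change was 0.17 (SE 0.044, adjusted p = 0.0267), and with the test statistic rescaled by its spread the call was lost (adjusted p = 0.07). Over the whole list, Tia1 and Tial1 included, both sexes pointed to low extinction in 14 and to high extinction in 12 of the 40, where 24% and 30.3% of all tested genes did, and the median was near 0 (-0.003). Tardbp had 0.10 (adjusted p = 0.355) and the mRNA decay factor gene Zfp36l1 -0.28 (adjusted p = 0.17).

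**Figure D3:**
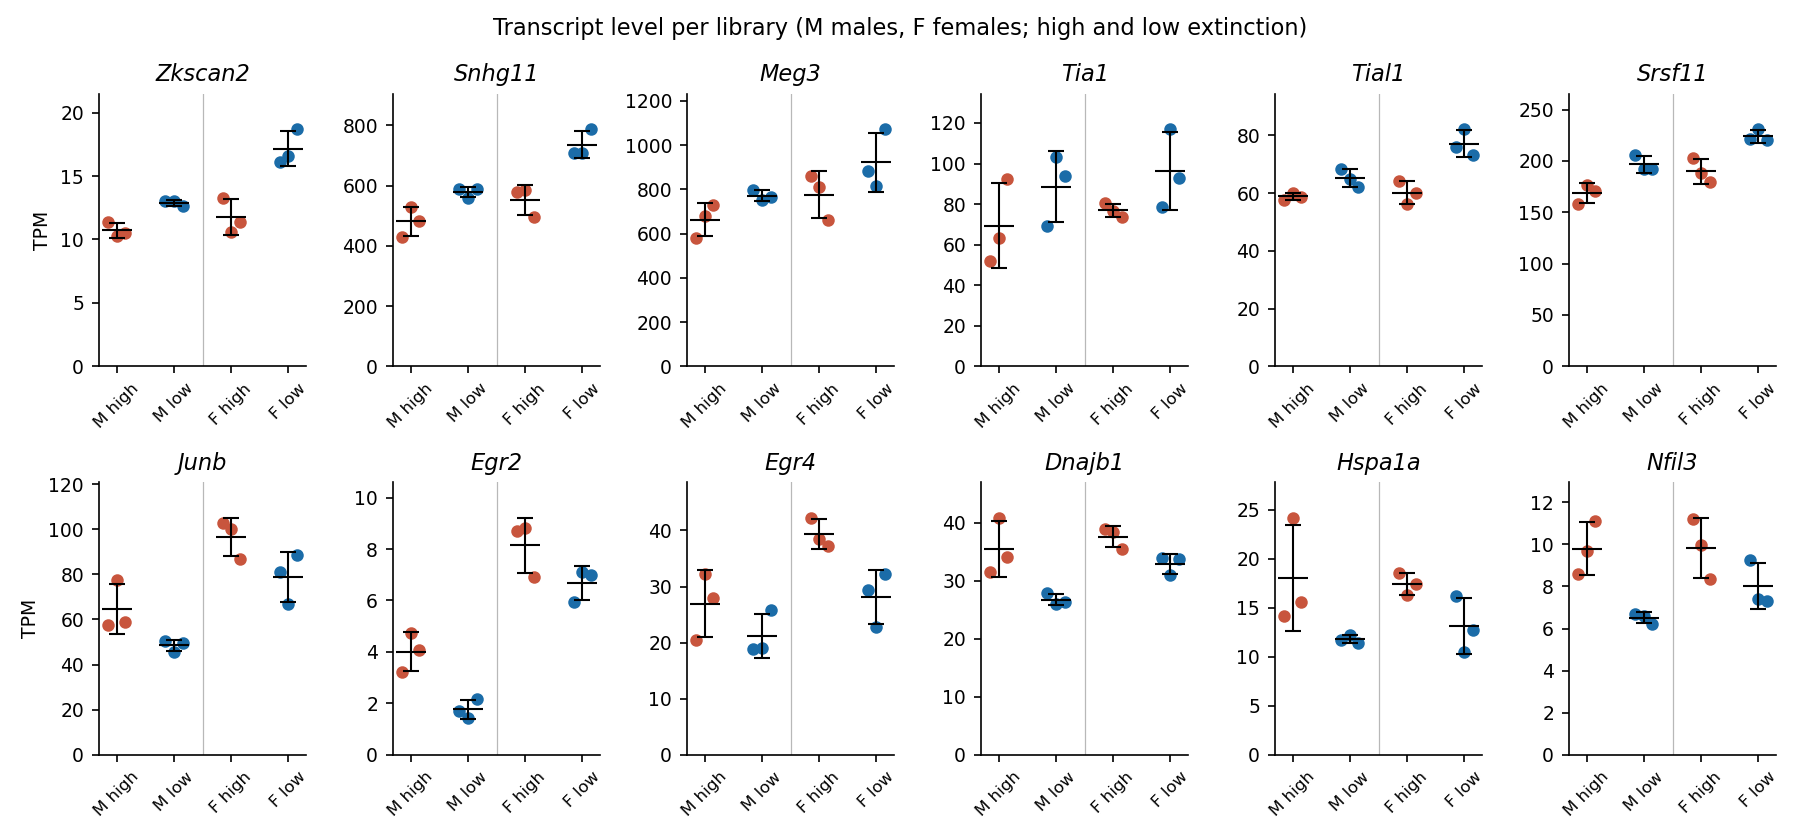
TPM per library for 12 genes called on the combined change, in males (M) and females (F) at high (red) and low (blue) extinction; black bars give the mean and SD of 3 mice. The upper row is higher at low and the lower row higher at high extinction in both sexes, with no overlap in either sex for Zkscan2, Snhg11, Tial1, Srsf11, Dnajb1 and Hspa1a.

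Zkscan2, a KRAB and SCAN domain zinc finger gene on chromosome 7, had the smallest p of all genes. It lay at 11.4, 10.3 and 10.5 TPM in high-extinction and 13, 13 and 12.6 TPM in low-extinction males, and at 13.3, 10.6 and 11.4 against 16.1, 16.6 and 18.7 TPM in females. No library of one group reached the other in either sex. The combined change was 0.40 (SE 0.053), a 1.32-fold difference (adjusted p = 8.24e-10), and leaving out any single library kept its TPM change between 0.34 and 0.42. Of 419 tested zinc finger genes, 5 were called, all higher at low extinction (Zkscan2, Zfp512b, Zfp386, Zfp810 and Zfp950), where 0.454% of all tested genes were called in that direction. A positive change was seen in 53.9% of them, against 38.9% of protein-coding genes. Zfp810 also had no overlap, at 12.6, 11.7 and 12.4 against 14.9, 14.6 and 12.7 TPM in males and 11.7, 12.8 and 12.3 against 16.4, 16.1 and 17.8 TPM in females (0.33, SE 0.075, adjusted p = 0.00349).

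Other genes higher at low extinction were more varied. Ttc14 (0.24, adjusted p = 3.8e-06), Spaca6, which hosts the let-7e and miR-99b cluster (0.32, adjusted p = 1.93e-05), the integrator-like gene Ints6l (0.26, adjusted p = 6.6e-05) and the mitochondrial elongation factor gene Guf1 (0.28, adjusted p = 0.000512) were among the 15 smallest p-values. Noncoding genes in that group were Gm21781 (0.43, adjusted p = 0.000112), AC156025.1, which lies across from Cadps (0.39, adjusted p = 0.00028), and Gm37607 (0.60, adjusted p = 0.000512). Etnppl, an astrocyte enzyme that breaks down phosphoethanolamine, was the only call among 20 astrocyte genes at 0.40 (SE 0.088, adjusted p = 0.00239). It rested mostly on males, at 11.8, 13.2 and 12.6 against 14.8, 17.6 and 24.3 TPM, while females overlapped at 14.3, 17.3 and 18 against 19.5, 17 and 19.8 TPM. Unc13b, a vesicle priming protein, was the only call among 35 presynaptic genes (0.18, adjusted p = 0.0437), the neuropeptide gene Nts changed by 0.59 (adjusted p = 0.0418), and Col11a1 was the only collagen called, of 30 (0.31, adjusted p = 0.00725). Calls in this direction made 0.454% of all tested genes.

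The largest change with no overlap in either sex at low extinction was that of A930036I15Rik, a transcript inside Ank2 on the same strand, at 3.31, 2.47 and 2.76 against 4.71, 5.24 and 5.48 TPM in males and 3.92, 3.14 and 4.08 against 4.54, 6.37 and 5.27 TPM in females (0.67, SE 0.175, adjusted p = 0.0232). Gm44846 inside Grm5 (0.36), Gm32444 (0.39), 4932422M17Rik (0.41) and A230077H06Rik across from Vstm2b (0.40) were of the same kind. Of the 27 noncoding genes called higher at low extinction, 3 overlapped a coding gene on the same strand, 7 overlapped one on the opposite strand and 17 overlapped neither.

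The 2 directions differed in the kind of transcript. Among the 82 genes higher at low extinction, 55 (67.1%) were protein coding, 14 were TEC models (single transcripts that GENCODE lists as awaiting experimental evidence), 10 were lincRNAs and 2 were antisense RNAs. Among the 71 higher at high extinction, 70 (98.6%) were protein coding, against 75.4% of tested genes. Over all 560 tested TEC models the median combined change was 0.16 and 80% were positive, whereas 38.9% of 13606 protein-coding genes were positive. The summed TPM of the TEC models was 2298, 2351 and 2201 in high-extinction and 2397, 2447 and 2469 in low-extinction males, and 2349, 2529 and 2291 against 2747, 2728 and 2777 in females. With genes derived from ribosomal RNA left out the male groups overlapped for TEC models, at 3027, 2722 and 2474 against 2894, 2905 and 2883. Small nucleolar RNAs stayed apart in both sexes on that scale, at 984.8, 885.2 and 793.5 against 1103, 1080 and 997.8 in males and 947.4, 1026 and 932.9 against 1047, 1174 and 1062 in females, although 0 of the 133 tested were called. Libraries were enriched for polyadenylated RNA, so the levels of small RNAs without a tail depend on that step.

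**Figure D4:**
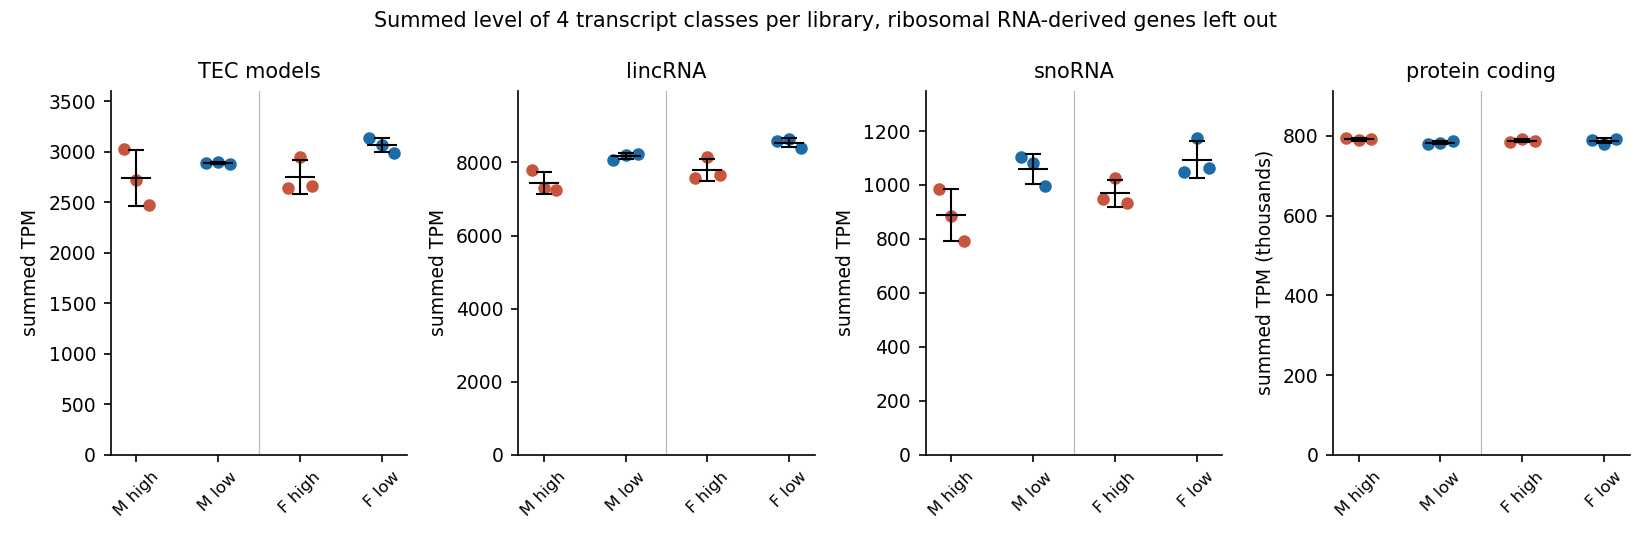
Summed TPM of 4 transcript classes per library after leaving out genes derived from ribosomal RNA, for males (M) and females (F) at high (red) and low (blue) extinction; black bars give the mean and SD of 3 mice. Low extinction lies above high extinction without overlap in both sexes for lincRNAs and small nucleolar RNAs and in females for TEC models, and protein-coding sums lie lower at low extinction in males.

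Base composition moved with the direction as well. The median GC content of a gene's longest annotated transcript was 43.8% in genes higher at low and 54.9% in genes higher at high extinction. Over all tested genes it was 49.4%. Within protein-coding genes it was 44.1% and 54.9%, against 49.9%. The median length of all exons of a gene together was 6200 bases at low and 4307 bases at high extinction. Over all tested genes it was 3621 bases. Within protein-coding genes it was 7475 and 4285 bases, against 4554 bases, so that genes higher at high extinction were slightly shorter than the background there. Of the 153 calls, 96 were kept when fold changes were centred over GC content and length, and of the 126 genes then called 69.8% were higher at low extinction, in place of 53.6%. The part of base composition, RNA integrity or ribosomal RNA content in these calls was not tested.

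**Figure D5:**
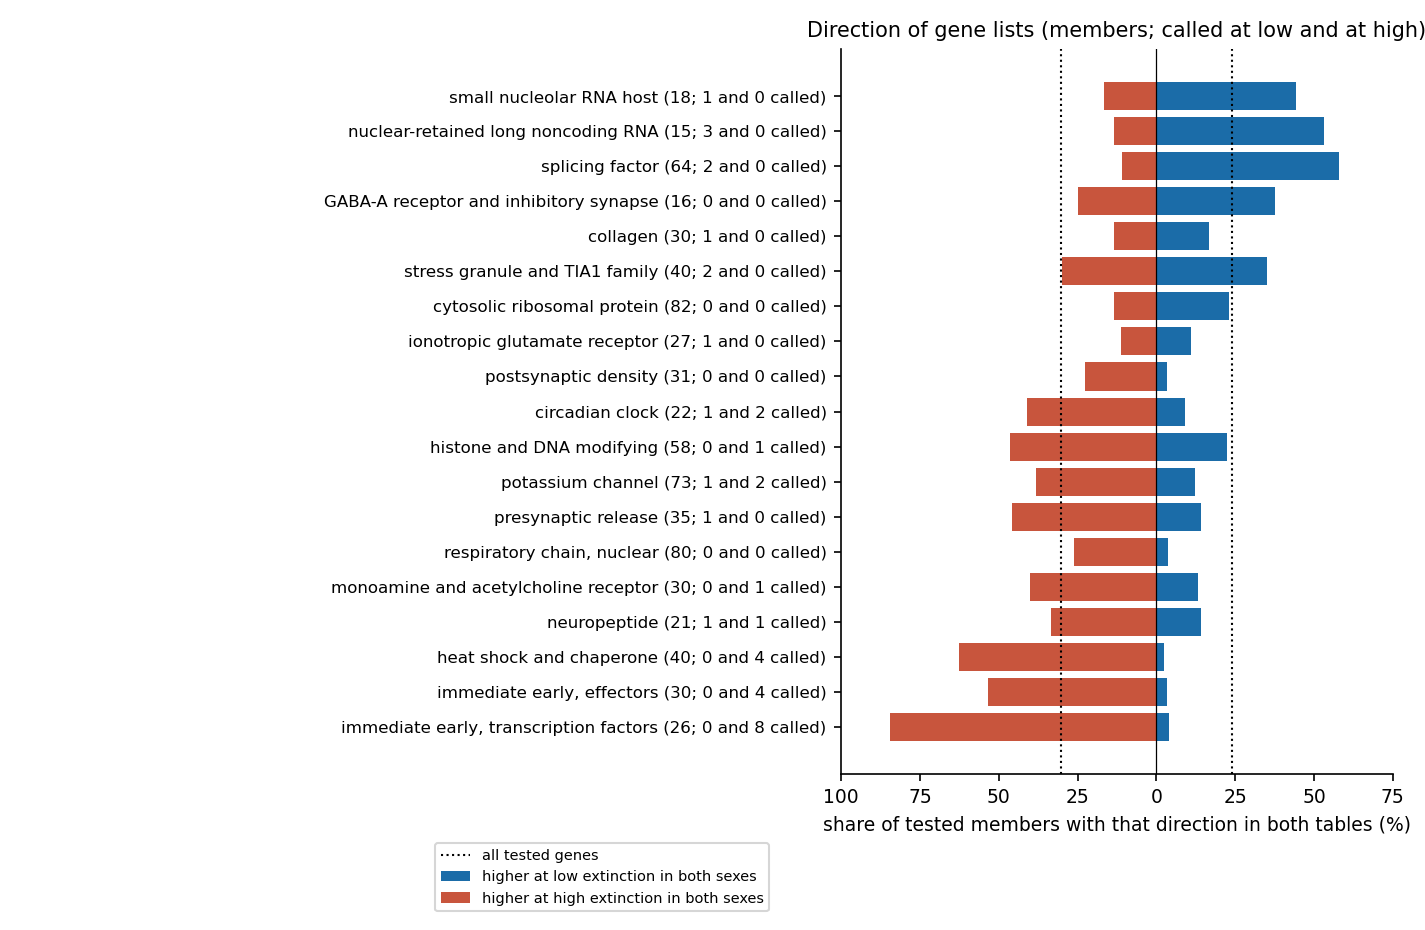
Share of tested members of each gene list that point to low (blue, right) or high (red, left) extinction in both sexes, with the numbers tested and called beside each name; dotted lines mark all tested genes, 24% and 30.3%. Immediate early transcription factors reach 84.6% on the left and splicing factors 57.8% on the right.

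Markers of other cell types were followed because a dissection can carry neighbouring tissue, and in bulk RNA fewer cells of a type and less RNA per cell cannot be told apart. The 13 lists of cell types and regions, with 231 different genes tested, held 6 calls in all, against 0.454% and 0.394% of all tested genes at low and high extinction: Foxj1, Slc16a1 and Sst at high extinction and Etnppl, Prkcd and Cacng5 at low extinction. Choroid plexus markers had the largest median, -1.16. In both sexes 17 of 20 pointed to high extinction (30.3% of all tested genes did), yet 0 were called. Ttr, the thyroid hormone carrier made by that tissue, stood at 2874, 3300 and 299 TPM in high-extinction and 906, 41.3 and 49.6 TPM in low-extinction males, and at 12.6, 1166 and 1076 against 690, 997 and 80.6 TPM in females. The groups overlapped in both sexes, and levels varied widely within each group. Myelin genes pointed to high extinction in both sexes in 15 of 22, against 30.3% of all tested genes, with a median of -0.11 and 0 calls. Thalamus and habenula genes had a median of 0.22, and 2 of 17 (11.8%) were called higher at low extinction. Both sexes pointed there in 23.5% of them, against 24% of all tested genes. Their mean log2(TPM + 1), set against its mean over all libraries, overlapped in males. In females it was -0.00, 0.05 and -0.10 at high against 0.41, 0.34 and 0.22 at low extinction. The part of these tissues in the changes of neuronal genes was not tested. The neuronal markers Slc17a7 (combined change -0.07, adjusted p = 0.758) and Gad1 (-0.02, adjusted p = 0.946) and the 27 subfield markers (0 calls) did not pass. On TPM, Slc17a7, the glutamate transporter of excitatory vesicles, stood at 518, 556 and 1004 TPM in high-extinction and 540, 579 and 616 TPM in low-extinction males. In females Slc17a7 stood at 906, 872 and 941 against 537, 711 and 601 TPM without overlap, and its TPM change was -0.38 (limma unadjusted p = 0.023, adjusted p = 0.55), larger than its count-based change.

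Averages hide changes that run against each other. All 17 tested meningeal fibroblast markers had opposite signs in males and females, as did 13 of 15 ependymal and 5 of 6 MHC class II genes. Over all tested genes, 8234 of 18043 had opposite signs. The male and female changes differed at an adjusted p under 0.05 in 60 genes, of which 59 had opposite signs and 55 had the lower value in males, and limma on TPM called 1. Of the genes called on average, only 3 were among these 60. Prkcd, a kinase gene strong in thalamus, rested on females alone: it lay at 20.7, 20.4 and 29.8 against 23.4, 18.2 and 21.7 TPM in males and at 18.2, 24.4 and 21.3 against 29.5, 35.3 and 35.4 TPM in females. Foxj1, the master factor of motile cilia, rested on males alone, at 10.6, 13.7 and 11.2 against 7.23, 4.01 and 6.37 TPM, whereas females lay at 4.86, 9.38 and 7.76 against 6.51, 8.27 and 9.62 TPM. The third was Serpinh1, a collagen chaperone gene, at -0.72 in males and -0.01 in females in the authors' deposited tables.

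Lists without a single call, at a background of 0.454% and 0.394%, included those of synaptic receptors and energy metabolism. None of 82 cytosolic ribosomal protein genes, 77 mitochondrial ribosomal protein genes, 80 nuclear and 13 mitochondrially encoded respiratory chain genes, 31 postsynaptic density genes, 16 genes of GABA-A receptors and the inhibitory synapse or 9 metabotropic glutamate receptor genes was called. Their medians ran from -0.04 to 0.07. Among 27 ionotropic glutamate receptor genes the auxiliary subunit gene Cacng5 was the only call (0.36, SE 0.093, adjusted p = 0.0253), and it is also on the thalamus list. Its call rested mostly on females, with 0.11 in males and 0.60 in females in the authors' deposited tables. Cacng5 lay at 5.67, 6.84 and 9.75 against 7.76, 6.99 and 8.68 TPM in males, with overlap. In females it lay at 5.84, 6.95 and 5.8 against 9.54, 9.9 and 10.5 TPM, without overlap. In all, 24 of the 44 lists held no call, and 3 held calls in both directions, those of the clock, potassium channels and neuropeptides.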

How the data were processed

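RNA was made from dissected, frozen hippocampi and enriched for polyadenylated RNA before library preparation, per the labels' protocols. Tools named by the submitters in their processing notes are DESeq2, StringTie 1.3.3b, HTSeq, Bowtie2 and TopHat2, on mm10 and GRCm38.p5, with roles not stated. The authors deposited, for each sex, a table of TPM for 52636 genes and a DESeq2 table with the base mean (a signal, the mean of normalized counts), log2 fold change, its standard error (also in log2 units), test statistic (a score), p-value and adjusted p-value, per the file headers. The deposited fold changes do not name their direction. They correlated with the TPM change of low minus high extinction at -0.59 over 18106 genes in males and -0.45 over 18109 in females, and were therefore multiplied by -1.

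The combined change is the mean of both log2 fold changes, with the standard error from both, tested by a two-sided normal p with Benjamini-Hochberg adjustment over genes whose mean level reached 1 TPM. log2(TPM + 1) was tested with limma 3.58.1 (R 4.3.3) with a mean-variance trend, 4 group means and the average of both low-minus-high differences. It understates changes of low genes. Both steps were tested on simulated data. Tia1 was tested with an exact permutation within sex. Other work used Python 3.11.15, numpy 2.4.6, scipy 1.17.1, pandas 2.3.3 and matplotlib 3.10.9. Positions are from GENCODE M21 on GRCm38, where 52489 of the gene identifiers were found, 49121 with the same version. Promoter windows are RefSeq's on GRCm38.p6.

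The genes, the 44 gene lists and the motifs were chosen with earlier results of these data known. Named genes were Tia1, the 15 smallest p per direction, up to 10 more per direction without overlap in either sex and up to 4 called members per direction of each list. Also named were, per sign, the 5 differences between sexes with the smallest p, and cell type markers. Some genes are not reported here. Any other gene named was chosen for its role or after its values were seen. Replicate numbers follow record order. No pair of libraries was identical. Alternatives were other weights, filters, pseudocounts, scalings and left-out libraries.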

Additional observations from a re-analysis of the deposited data

Results flagged for a closer look

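The male and female changes, low minus high extinction in the authors' deposited tables, differed at an adjusted p under 0.05 (two-sided normal test of the difference, Benjamini-Hochberg over 18043 genes) in 15 of the genes named here. The difference below is the male minus the female change. It was 0.46 (SE 0.113) for the protease gene Htra1, 0.87 (SE 0.221) for Gm11808, 0.39 (SE 0.1) for the calcium-binding protein gene Cabp7, 0.40 (SE 0.102) for Cox8a, a subunit of cytochrome oxidase, and 0.60 (SE 0.159) for Gm16418, with adjusted p from 0.027 to 0.045. For these 5 genes the male change was positive and the female change negative in the authors' deposited tables, for example 0.08 and -0.32 for Cox8a.

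In the other 10 the male change was lower than the female change. The difference was -2.69 (SE 0.403, adjusted p = 4.68e-07) for Cd74, a chaperone of MHC class II molecules, whose levels were 9.49, 5.88 and 7.96 TPM in high-extinction and 2.7, 0.997 and 1.77 TPM in low-extinction males and 2.44, 5.78 and 4.41 against 5.38, 6.7 and 10.3 TPM in females. Connective tissue and vessel genes had -2.90 for Col3a1, -1.16 for Col1a1, -1.57 for Bmp7, -0.89 for Sned1 and -1.35 for the smooth muscle actin gene Acta2. It was -1.46 for the cilia gene Ccdc187, -1.01 for Foxj1, -0.71 for the collagen chaperone gene Serpinh1 and -0.74 (SE 0.159, adjusted p = 0.00314) for Prkcd. Which tissue these transcripts came from was not tested.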

How the results depend on the processing

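With the test statistic rescaled by its spread, 82 genes were called (42 higher at low, 40 at high extinction) in place of 153, all of them among the 153. Asking for a call in both of the authors' deposited tables left 9 (7 and 2). Centring over GC content and length, chosen after seeing the data, gave 38 higher at high extinction in place of 71. Inverse-variance weights (194), a Stouffer sum (179), no filter (109), 5 TPM (157), an adjusted p in both tables (165) and centring on the median (156) stayed within 1.5 times. Of the 73 named called genes, rescaling lost 26, centring over GC content and length 22, no filter 14 and centring on the median 4. Without overlap in either sex, 96 genes lay higher at low extinction at 5 TPM, and higher at high extinction 73 lay with median scaling and 105 without genes derived from ribosomal RNA, both added after seeing the data. Leaving out a library gave 195 to 410 and 42 to 106 genes, limma on TPM 0 to 3 calls and Tia1 0.24 to 0.45. Named genes lost by rescaling included Prkcd, Foxj1, Sst, Sik1, Midn, Gadd45b, Ftx, Xbp1, Hspa1b, Srsf5, Per3, Kcnf1, Kcnt1, Kcnh1, Slc16a1, Cacng5, Unc13b, Nts, Chrm4 and Tial1. Leaving out a library kept the sign of the TPM change in 72 of the 73 named called genes. Srsf5 ran from -0.153 to 0.053 and turned positive when replicate 3 of the males at low extinction (0.017), replicate 1 or 2 of the females at high extinction (0.007 and 0.053) or replicate 2 of the females at low extinction (0.035) was left out. The cause was not tested. No paired analysis was possible because replicates are numbered by record order only. A library could not be left out of the deposited fold changes. With 3 mice per group and no depth per library, a gene that was not called may still differ.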
